A study of Mus musculus with 6 samples.

Results

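Purine nucleotide interconversion is the set of steps that turn inosine monophosphate (IMP), the first complete purine nucleotide, into the adenine and guanine nucleotides AMP and GMP and back. The transcripts of 10 enzymes of these steps were followed in the inguinal white adipose tissue of mice lacking Foxp4 in adipocytes. They were found by symbol in a table of 21900 genes, and all 10 had a row. Gmpr was chosen by its FPKM, which were higher in the knockouts than in the controls, so its own difference between groups is described here without a test. The other 9 (Gmpr2, Impdh1, Impdh2, Gmps, Adsl, Ampd2, Ampd3, Xdh and Hprt) were listed for their place in the pathway.

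RNA was sequenced from 6 samples of this subcutaneous fat pad, from C57BL/6 mice aged 2 months. All had been housed at 22 °C on chow and then kept at 4 °C for 7 days, so the controls too are cold-exposed tissue. The 3 control samples have the genotype Foxp4fl/fl, and the 3 knockout samples are labelled Foxp4AdipoQdelta/delta, in which the forkhead transcription factor gene Foxp4 was removed with a Cre recombinase under the adiponectin promoter, active in mature adipocytes. No group with Cre and intact Foxp4 is among them, so effects of Cre and of the deletion cannot be told apart. Whether each sample is a separate mouse is not stated, and the p-values therefore reflect sample-to-sample spread that may be technical.

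The libraries held 13180588 to 15998332 reads on genes, recovered from the deposited values. Foxp4 lay between 4.01 and 5.76 FPKM (read number scaled to exon length and library size) in controls and between 1.64 and 1.92 FPKM in knockouts. The adipocyte markers Adipoq, Plin1, Cidec, Lipe, Pnpla2, Fabp4, Lep and Cfd were all present, with summed levels of 12149 to 13232 FPKM in controls and 9327 to 10226 FPKM in knockouts. Their most abundant members were Cfd and Fabp4. Cfd had 5796 to 6621 FPKM in controls and 3569 to 4409 FPKM in knockouts. Fabp4 overlapped, with 2238 to 2773 FPKM in controls and 2454 to 2531 FPKM in knockouts. At an unadjusted p under 0.05 in limma, 3 of the 8 were lower, against 17.1% of all genes tested, a share that depends on the scaling. None of them passed after adjustment. In whole tissue, fewer cells of a type and less RNA per cell cannot be told apart in any value given here.

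GMP reductase, encoded by Gmpr and Gmpr2, converts GMP back to IMP with loss of its amino group, and is the only known route from guanine back to adenine nucleotides in mammals. It opposes the pair IMP dehydrogenase (Impdh1, Impdh2) and GMP synthetase (Gmps), which carry IMP through xanthosine monophosphate to GMP. AMP is made from IMP through adenylosuccinate, which Adsl cleaves, and AMP deaminases (Ampd2, Ampd3 and the muscle form Ampd1) return it to IMP. Xdh oxidises hypoxanthine and xanthine to urate, and Hprt salvages hypoxanthine and guanine. In thermogenic fat, purine nucleotides bind and inhibit the uncoupling protein Ucp1, and Gmpr is known as a gene that cold exposure induces in brown adipose tissue.

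The sequence before the start of Gmpr is printed because results on the pathway turn on this gene. It covers the 250 bases upstream of the RefSeq start on the plus strand, chr13:45507194-45507443 in GRCm38.p6, and capitals mark its 10 CG dinucleotides.
Gmpr: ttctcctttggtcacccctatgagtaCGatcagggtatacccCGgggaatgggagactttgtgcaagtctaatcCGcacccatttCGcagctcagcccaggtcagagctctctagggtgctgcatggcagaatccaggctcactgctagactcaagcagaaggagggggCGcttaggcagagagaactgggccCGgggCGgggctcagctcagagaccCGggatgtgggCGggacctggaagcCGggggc
G and C made up 61.2% of it, against a median of 52.4% over the 32851 promoters of the same length in the RefSeq table, whose median number of CG dinucleotides was 6. The letters TGTTTAC, a forkhead core motif, occurred on either strand in 3.17% of all these promoters, the cAMP response element TGACGTCA in 1.55% and TCAAGGTCA, bound by oestrogen-related receptors, in 0.387%. None of the 3 occurred in the 250 bases before Gmpr, nor in any of the 13 promoters that the table holds for 9 of the enzymes. With motifs this rare, few or none would be expected in 13 promoters, of which those of Ampd2 overlap each other, so their absence carries little information. A window of this length does not show whether a factor binds elsewhere.

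Gmpr (ENSMUSG00000000253.13, chromosome 13, 45507444 to 45553800, plus strand, mm10) was at 5.13, 6.72 and 10.3 FPKM in the control libraries, against 33.2, 43.5 and 13.9 FPKM in the knockout libraries. Every knockout was above every control, but knockout 3 lay nearer to control 3 than to either other knockout. The means were 7.40 ± 2.67 and 30.2 ± 15.0 FPKM (SD, n = 3), a ratio of 4.08. Behind these values were 168 to 387 reads in each control and 487 to 1341 reads in each knockout. On the scale of log2(FPKM + 1), which understates the change of low genes, the difference was 1.80. That was rank 3 from the top among 10787 genes tested, while the ratio of mean FPKM had rank 17. Both ranks rest on the values by which Gmpr was chosen and are a description only. The log2 difference ranged from 1.47 without knockout 2 to 2.26 without knockout 3. The spread within a group was also wide: the highest control was 2.01 times the lowest, and the highest knockout 3.14 times the lowest.

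Exons of Gmpr share 375 bases, 16.1% of its exon length, with exons of Atxn1 on the opposite strand, and the strand setting of the counting is not given in the sources used here. Atxn1 lay between 1.28 and 2.02 FPKM in controls and between 1.15 and 1.41 FPKM in knockouts. Reads in the shared bases were not separated, and the part of Atxn1 in the values of Gmpr was not tested.

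Gmpr2 (chromosome 14, 55671941 to 55679200, plus strand), which encodes the other GMP reductase, stood at 0.886, 1.01 and 1.41 FPKM in the control libraries, against 1.19, 1.23 and 1.498 FPKM in the knockout libraries. The groups overlapped, with control 3 above knockouts 1 and 2. The log2 difference was 0.14 (SE 0.12, 95% interval -0.15 to 0.43, adjusted p = 0.51 in limma, adjusted over all genes tested), and it was 0.065 without control 1 and 0.24 without control 3. Each library held only 49 to 89 reads on this gene, and 39.2% of its exon length is shared with Tinf2 on the other strand, which makes its level uncertain. Of the FPKM of both reductases, Gmpr took 85.3, 86.9 and 88.0% in the controls and 96.5, 97.3 and 90.2% in the knockouts. Gmpr was thus the main reductase transcript in all 6 libraries.

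**Figure D1:**
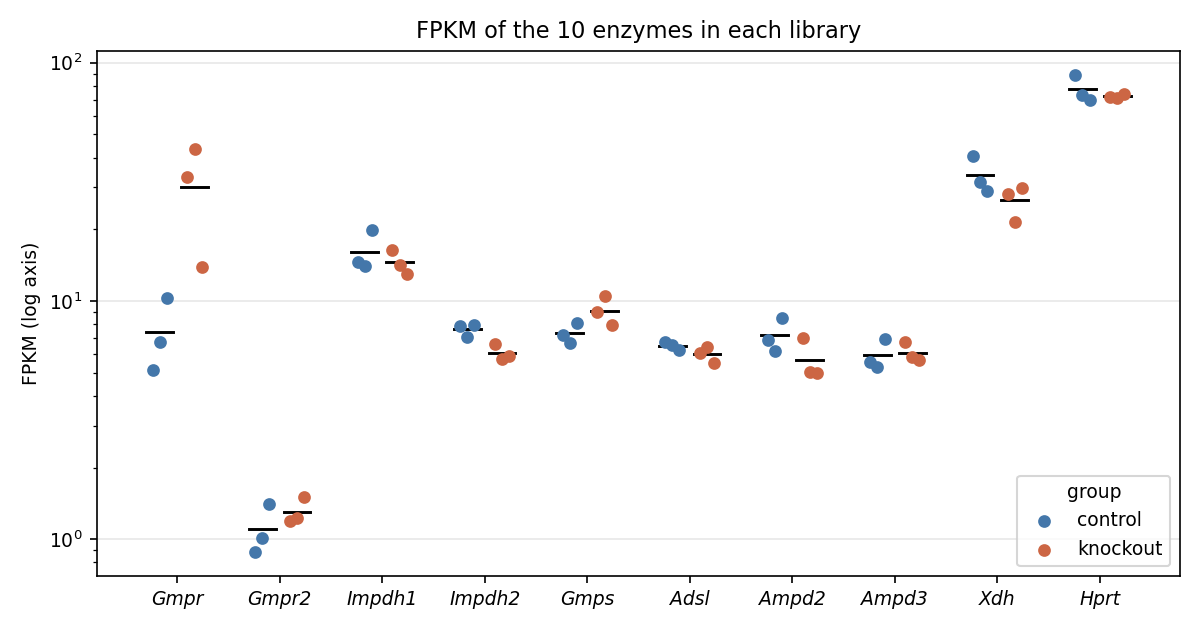
FPKM (log axis) of the 10 enzymes, with 1 point per library and a black bar at the mean of each group (n = 3). The Gmpr points of the groups are apart (5.13 to 10.3 against 13.9 to 43.5 FPKM), Impdh2 is apart by less and lower in the knockouts, and the points of the other 8 overlap.

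On the way from IMP to GMP, the levels moved little. Impdh1 (chromosome 6, 29200434 to 29216364, minus strand), one of the genes for the rate-limiting dehydrogenase of guanine nucleotide synthesis, stood at 14.6, 14.0 and 19.8 FPKM in the control libraries, against 16.3, 14.2 and 13.04 FPKM in the knockout libraries. The groups overlapped, and control 3 was the highest library. Its log2 difference was -0.13 (SE 0.14, 95% interval -0.47 to 0.21), and 0.015 without control 3.

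Impdh2 (chromosome 9, 108560286 to 108565584, plus strand), the other dehydrogenase gene, stood at 7.82, 7.09 and 7.92 FPKM in the control libraries, against 6.59, 5.73 and 5.86 FPKM in the knockout libraries. All 3 knockouts were below all 3 controls, with means of 6.06 ± 0.47 and 7.61 ± 0.45 FPKM (SD, n = 3). The log2 difference of -0.29 (SE 0.08, 95% interval -0.49 to -0.09) had an adjusted p of 0.12 in limma and did not pass the threshold of 0.05. After median-of-ratios scaling the difference was -0.20. A processed copy of this gene, Impdh2-ps, is annotated and could share reads with it.

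Gmps (chromosome 3, 63976106 to 64022579, plus strand), which aminates xanthosine monophosphate to GMP, stood at 7.23, 6.70 and 8.11 FPKM in the control libraries, against 8.95, 10.5 and 7.95 FPKM in the knockout libraries. Knockouts 1 and 2 were above all controls, and knockout 3 was just below control 3. The log2 difference was 0.27 (SE 0.11, 95% interval 0.01 to 0.54, adjusted p = 0.20 in limma), and 0.18 without knockout 2.

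Set against the dehydrogenases within each library, which removes scaling between libraries, Gmpr had 0.229, 0.318 and 0.373 times the summed FPKM of Impdh1 and Impdh2 in the controls. In the knockouts this ratio was 1.45, 2.18 and 0.733. Gmpr was therefore below the dehydrogenases in all controls and in knockout 3, and above them in knockouts 1 and 2. Relative to Gmps it was at 0.710, 1.003 and 1.28 in controls and at 3.71, 4.16 and 1.74 in knockouts. These ratios contain the gene that was chosen for its difference and are given as a description of transcript levels, which do not measure flux.

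**Figure D2:**
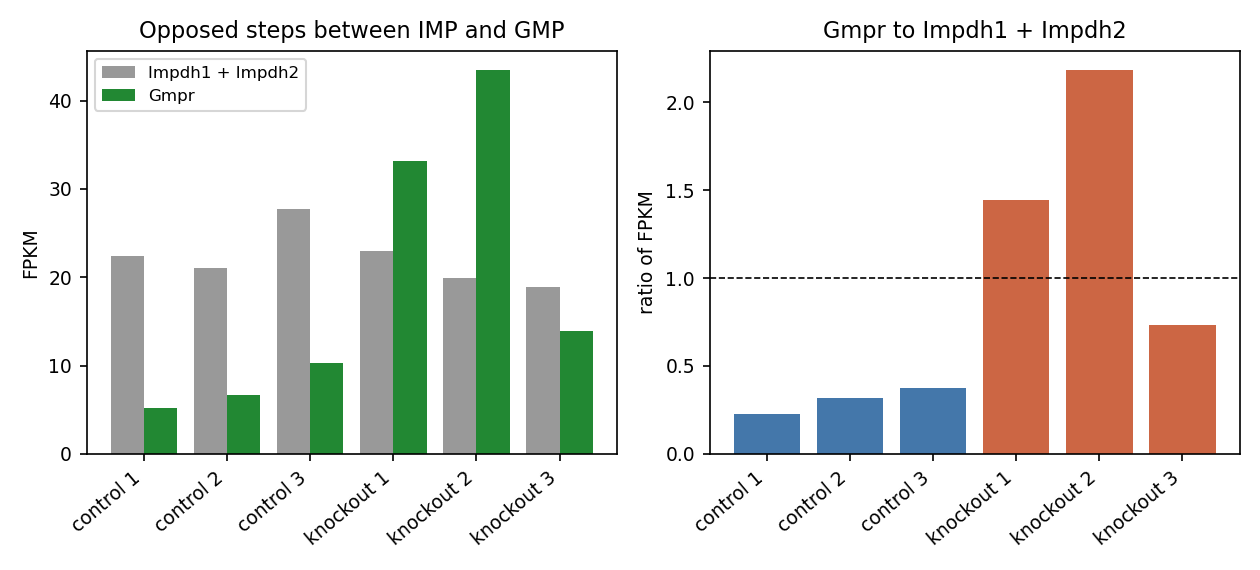
Left, FPKM of Impdh1 and Impdh2 summed (grey) and of Gmpr (green) in each library. Right, their ratio, with a dashed line where both are equal. Gmpr exceeds the dehydrogenases in knockouts 1 and 2 (1.45 and 2.18), and the controls lie between 0.229 and 0.373.

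Between IMP and AMP, no enzyme passed the test. Adsl (chromosome 15, 80948490 to 80970946, plus strand), which also acts earlier in purine synthesis, was among the steadiest, at 6.74, 6.51 and 6.23 FPKM in controls and 6.06, 6.39 and 5.51 FPKM in knockouts. The groups overlapped by 1 library, knockout 2, which was above control 3. The log2 difference was -0.10 (SE 0.08, 95% interval -0.29 to 0.09), -0.053 without knockout 3 and -0.018 after median-of-ratios scaling.

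Ampd2 (chromosome 3, 108074062 to 108086651, minus strand), the AMP deaminase known from liver and many non-muscle tissues, stood at 6.88, 6.17 and 8.47 FPKM in the control libraries, against 6.96, 5.06 and 5.01 FPKM in the knockout libraries. Knockouts 2 and 3 were below all controls, while knockout 1 was above controls 1 and 2. The log2 difference was -0.29 (SE 0.15, 95% interval -0.64 to 0.06, adjusted p = 0.27 in limma), and -0.18 without control 3.

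Ampd3 (chromosome 7, 110768206 to 110812405, plus strand), known as the red cell form, stood at 5.56, 5.27 and 6.93 FPKM in the control libraries, against 6.75, 5.79 and 5.64 FPKM in the knockout libraries. The groups lay over each other, with a log2 difference of 0.03 (SE 0.11, 95% interval -0.24 to 0.30) that turned to -0.036 without knockout 1. Erythroid markers varied between libraries too: the summed level of Hba-a1, Hba-a2, Hbb-bs, Hbb-bt and Alas2 was highest in control 1 (1951 FPKM) and lowest in knockout 1 (580 FPKM). Their part in the values of Ampd3 was not tested.

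Ampd1, the deaminase of skeletal muscle, had a mean below 1 FPKM in either group and was not tested. It stood at 0.520, 0.116 and 0.245 FPKM in the control libraries, against 0.172, 0.509 and 2.29 FPKM in the knockout libraries, from 6 to 26 reads in each control and 9 to 123 reads in each knockout. Knockout 3 was far above the other 5 libraries. That library also had the highest summed level of 11 skeletal muscle markers, 358 FPKM, against 18.1 to 76.0 FPKM in controls and 22.9 and 113 FPKM in knockouts 1 and 2. Acta1 and Tnnt3 were the most abundant of these markers, and 1 of the 11, Tnnc2, was listed at 0 throughout.

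Among the AMP deaminase transcripts, Ampd2 took 53.1, 53.4 and 54.1% of the summed FPKM in controls and 50.1, 44.5 and 38.7% in knockouts. Every knockout was below every control, a difference of -9.07 percentage points (two-sided exact permutation p = 0.10, the smallest that 3 against 3 allows), and of -6.20 without knockout 3. Ampd3 took 42.9 to 45.6% in controls and 43.6 to 51.0% in knockouts (exact permutation p = 0.30). Ampd1 took 1.002 to 4.01% in controls and 1.23, 4.48 and 17.7% in knockouts (exact permutation p = 0.30), a difference of 5.62 percentage points that was 0.67 without knockout 3. Impdh1 took 65.1 to 71.4% of both dehydrogenases in controls and 69.0 to 71.3% in knockouts (exact permutation p = 0.40). Adjusted over these 4 shares by the Benjamini-Hochberg method, the p-values were all 0.40.

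**Figure D3:**
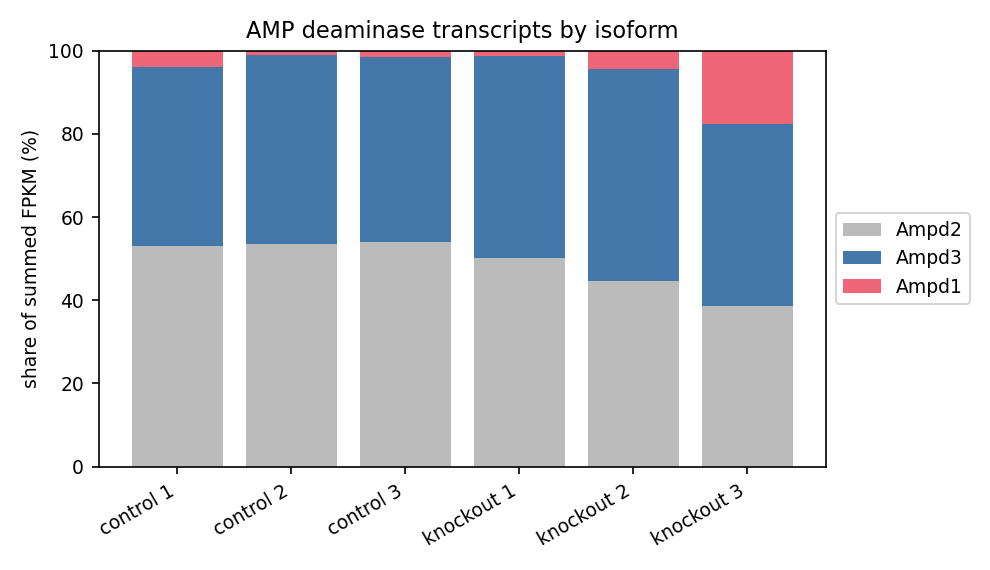
Share of the summed FPKM of Ampd1, Ampd2 and Ampd3 in each library, in percent. Ampd2 takes 53.1 to 54.1% in controls and 38.7 to 50.1% in knockouts, and Ampd1 reaches 17.7% in knockout 3.

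Xdh (chromosome 17, 73883895 to 73950196, minus strand), whose enzyme makes urate, stood at 40.6, 31.7 and 28.9 FPKM in the control libraries, against 28.1, 21.4 and 29.7 FPKM in the knockout libraries. Control 1 was the highest library, and knockout 3 lay above control 3. The log2 difference was -0.34 (SE 0.16, 95% interval -0.72 to 0.04, adjusted p = 0.25 in limma), and -0.20 without knockout 2. With 2613 to 5246 reads per library this was the most deeply covered of the 10 enzymes.

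Hprt (chromosome X, 52988137 to 53021659, plus strand), the salvage enzyme often used as a reference transcript, stood at 89.2, 73.4 and 69.9 FPKM in the control libraries, against 71.8, 71.3 and 73.9 FPKM in the knockout libraries. Only control 1 stood apart. The log2 difference was -0.09 (SE 0.10, 95% interval -0.34 to 0.16), and it changed sign to 0.0071 after median-of-ratios scaling and to 0.013 without control 1.

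Of the 9 enzymes other than Gmpr, 0 passed an adjusted p of 0.05 in limma, against 0.00927% of all genes tested. At an unadjusted p of 0.05 there were 2, Gmps higher and Impdh2 lower, or 22.2%, close to the 24.1% of all genes tested. The groups did not overlap in 1 of the 9, Impdh2, which was lower, against 31.2% of all genes tested (8.48% higher and 22.7% lower). Their median log2 difference was -0.10, and that of all genes tested was -0.08. Under median-of-ratios scaling these medians were -0.018 and -0.0011. Each of these shares was close to, or below, that of all genes tested, apart from the calls at the adjusted threshold, where both are at or near 0. Their summed level lay between 152 and 179 FPKM in controls and between 142 and 153 FPKM in knockouts.

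**Figure D4:**
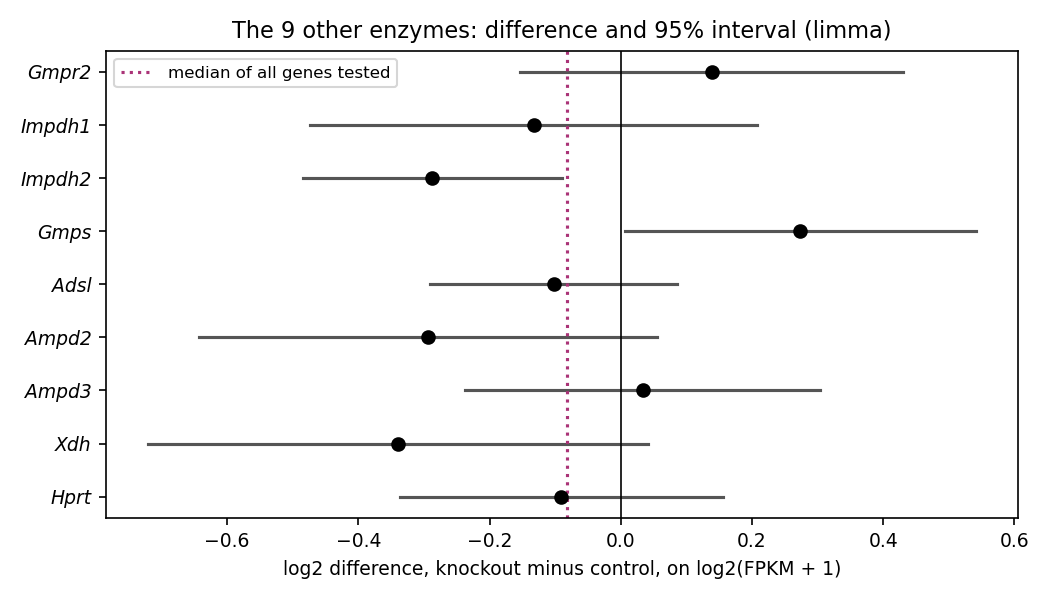
Difference between knockouts and controls on the log2(FPKM + 1) scale for the 9 enzymes other than Gmpr, with the 95% interval from limma (n = 3 per group). The dotted line is the median of all genes tested (-0.08), and only the intervals of Impdh2 (-0.49 to -0.09) and Gmps (0.01 to 0.54) leave out 0.

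Averaged over all 6 libraries, FPKM being per length, the levels ran from Hprt (74.9 FPKM) and Xdh (30.1 FPKM) through Gmpr (18.8 FPKM), Impdh1 (15.3 FPKM) and Gmps (8.23 FPKM) to Impdh2 (6.84 FPKM), Ampd2 (6.42 FPKM), Adsl (6.24 FPKM), Ampd3 (5.99 FPKM) and Gmpr2 (1.20 FPKM). The ranges over libraries of Hprt and Xdh did not overlap, nor did those of Impdh1 and Gmps or of Ampd3 and Gmpr2. The range of Gmpr (5.13 to 43.5 FPKM) took in Xdh and Impdh1. The ranges of Gmps, Impdh2, Ampd2, Adsl and Ampd3 overlapped. By level, Gmpr had rank 9, 5 and 4 among the 10 in controls 1, 2 and 3, and rank 2, 2 and 3 in knockouts 1, 2 and 3. Among the controls, control 3 had the highest value for 7 of the 10 enzymes, as it did for 48.4% of all genes tested. The exceptions were Adsl, Xdh and Hprt, each highest in control 1 and lowest in control 3.

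The wider purine pathway was described with 83 further genes, of which 60 reached a mean of 1 FPKM in either group and were tested. None passed an adjusted p of 0.05 in limma. An unadjusted p under 0.05 was found for 4 with higher and 8 with lower values, or 20%, against 24.1% of all genes tested (6.98% higher and 17.1% lower). Median-of-ratios scaling made this 9 higher and 5 lower of 61, and over all genes tested it went from 753 higher and 1848 lower to 1404 and 1000, so the balance of directions depends on the scaling. The count of 12 fell to 7 without knockout 2. The median log2 difference of the 60 was -0.03.

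Synthesis of IMP from small precursors had 2 of 10 genes at an unadjusted p under 0.05, both with lower values. This was 20%, against 24.1% of all genes tested (17.1% lower), and the balance of directions depends on the scaling. Prps1 makes the ribose phosphate donor. It averaged 21.2 ± 3.68 FPKM (SD, n = 3) in the controls, against 15.7 ± 2.30 FPKM in the knockouts, with overlap. Prpsap1, a protein associated with that enzyme, had 8.39 and 7.32 FPKM without overlap. Its log2 difference of -0.18 was -0.089 after median-of-ratios scaling. Paics, a bifunctional enzyme of the middle steps and the most abundant of this group, had nearly equal means of 37.3 and 38.9 FPKM.

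On the branch from IMP to AMP, Adssl1, the muscle isoform of adenylosuccinate synthetase, had 6.28, 8.12 and 7.18 FPKM in controls and 8.51, 11.2 and 8.22 FPKM in knockouts. The groups did not overlap, the log2 difference was 0.32 (adjusted p = 0.20 in limma), and it was 0.20 without knockout 2. Muscle markers were highest in knockout 3, and their part in the values of Adssl1 was not tested. In salvage, 1 of 6 genes had an unadjusted p under 0.05, or 16.7%, against 24.1% of all genes tested. It was the mitochondrial deoxyguanosine kinase gene Dguok (7.03 and 5.80 FPKM). The most abundant, adenosine kinase Adk, had 12.0 and 13.4 FPKM. Adal, an adenosine deaminase-like gene, had 1.73 and 2.46 FPKM without overlap.

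Of the tested genes for breakdown and release of purines, Aox1 and Entpd1 had lower values at an unadjusted p under 0.05. The shares were 1 of 2 for breakdown, 7.69% for nucleotidases and phosphorolysis and 0% for transport. Over all genes tested, 17.1% were lower in this way, a share that depends on the scaling. Aox1, an aldehyde oxidase related to Xdh, averaged 18.6 ± 3.62 FPKM in the controls, against 13.1 ± 0.40 FPKM in the knockouts (SD, n = 3; log2 difference -0.46, adjusted p = 0.11 in limma) without overlap, and its difference was -0.31 without control 2. Gda, which deaminates guanine to xanthine, had 28.7 and 25.8 FPKM with overlap. Among 13 tested nucleotidase and phosphorolysis genes 1 had an unadjusted p under 0.05, the ectonucleotidase Entpd1 (3.89 and 2.82 FPKM; log2 difference -0.35, and -0.23 without control 3), and the most abundant, Entpd5, had 21.2 and 21.9 FPKM, with a log2 difference of 0.05 that turned to -0.050 without control 1. Uox, whose enzyme degrades urate, was listed at 0 in every library. Of 7 tested transporters none reached an unadjusted p of 0.05, and the nucleobase transporter gene Slc43a3 had 29.0 and 23.9 FPKM.

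Nucleotide kinases had 2 of 10 tested genes at an unadjusted p under 0.05, both with higher values. This was 20%, against 24.1% of all genes tested (6.98% higher), and the balance of directions depends on the scaling. Ak1, a cytosolic adenylate kinase abundant in muscle, stood at 7.39, 9.03 and 11.1 FPKM in the control libraries, against 16.6, 14.5 and 13.3 FPKM in the knockout libraries, without overlap. Its log2 difference of 0.64 (SE 0.15) had an adjusted p of 0.088 in limma and missed the threshold. Muscle markers summed to 22.9, 113 and 358 FPKM in knockouts 1, 2 and 3, and their part in the values of Ak1 was not tested. Ak3, a mitochondrial matrix kinase that uses GTP to phosphorylate AMP, had 74.1 ± 7.33 and 91.1 ± 4.70 FPKM (SD, n = 3), also without overlap.

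In the group for deoxynucleotide supply and pool cleaning, 3 of 8 genes had lower values at an unadjusted p under 0.05, against 17.1% of all genes tested, a share that depends on the scaling. All 3 were without overlap, against 22.7% of all genes tested lower in this way. Samhd1, a phosphohydrolase of deoxynucleotides abundant in myeloid cells, had 10.5 ± 2.54 and 7.08 ± 0.36 FPKM (SD, n = 3), and its log2 difference of -0.49 was -0.32 without control 3. Nudt16, which hydrolyses inosine diphosphate, had 4.92 and 3.38 FPKM, and Rrm2b, a subunit of ribonucleotide reductase, had 3.27 and 2.56 FPKM. Itpa, an inosine triphosphatase and the most abundant of this group, had 14.8 and 15.7 FPKM. All 9 macrophage markers, with Lyz2 and C1qa the most abundant, had lower values at an unadjusted p under 0.05, against 17.1% of all genes tested, and none passed after adjustment. Their summed level was 583 to 777 FPKM in controls and 368 to 478 FPKM in knockouts. Their part in the values of Samhd1 and Entpd1, both expressed in macrophages, was not tested.

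Across libraries, the genes with the profile nearest to that of Gmpr were sought among all genes tested. Likeness was the root mean square difference between log2(FPKM + 1) values over the 6 libraries, each gene centred on its own mean. It was smallest for Dio2 (0.23), Fam131c (0.24), Fndc5 (0.34), Kng2 (0.35) and Elovl3 (0.36), against a median of 1.08 over all genes. Dio2 encodes the deiodinase that activates thyroid hormone in brown fat, and Elovl3 a fatty acid elongase induced there by cold. Of the pathway the nearest was Gmps (0.88, 518th of all genes), followed by Gmpr2 (0.9985, 2158th), and Xdh was the farthest (1.28, 10307th). The values were not scaled to the spread of each gene, so this measure reflects the size of differences as well as the order of libraries. The place of a member therefore does not show whether it varied together with Gmpr.

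Dio2 stood at 2.36, 1.84 and 5.21 FPKM in the control libraries, against 14.4, 16.1 and 5.15 FPKM in the knockout libraries, so that knockout 3 was just below control 3. Fam131c stood at 1.83, 2.01 and 3.12 FPKM in the control libraries, against 13.9, 12.1 and 3.50 FPKM in the knockout libraries. In these genes, as in Gmpr, knockout 3 was the lowest knockout and control 3 the highest control. The nearest genes were picked for likeness to Gmpr over these same libraries. Their shared rise and order of libraries therefore follow in large part from that choice. Ucp1 ranked 17th (0.51), at 800, 1333 and 2007 FPKM in controls and 2898, 3009 and 1875 FPKM in knockouts. Within each group the order of libraries was the same for Gmpr and Ucp1. Across groups they differed in 1 place: knockout 3 was below control 3 in Ucp1 and above it in Gmpr. Per unit of Ucp1, Gmpr was at 0.642, 0.504 and 0.515% in controls and at 1.15, 1.44 and 0.739% in knockouts.

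**Figure D5:**
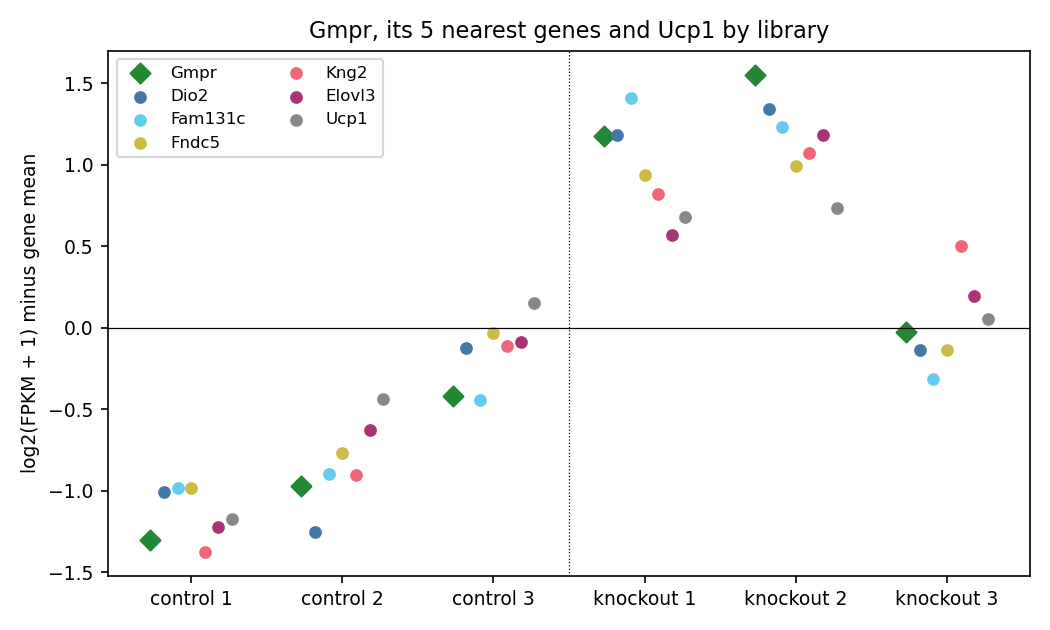
log2(FPKM + 1) minus the mean of each gene in the 6 libraries, for Gmpr (diamonds), the 5 genes with the nearest profiles and Ucp1. In all 7 genes knockout 2 lies above 0.7 and control 1 below -0.9, and knockout 3 is the lowest knockout. The 5 genes were picked for likeness to Gmpr in these same libraries.

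Of the lists of cell types, the 9 thermogenic markers had Ucp1 and Cidea as the most abundant. Dio2 and Elovl3, given above as near to Gmpr, are also among them. Their summed level was 1548, 2842 and 3372 FPKM in controls and 4554, 5136 and 3459 FPKM in knockouts. This sum had the same order of libraries as Gmpr, while Ucp1 and Cidea each did not. Cidea stood at 306, 597 and 512 FPKM in controls and 633, 756 and 541 FPKM in knockouts. An unadjusted p under 0.05 was found for 6 of the 9 thermogenic markers, all with higher values, against 6.98% of all genes tested. The share of all genes in each direction depends on the scaling, for these markers and for the fibroblast markers below. None of the 9 thermogenic markers passed after adjustment. The part of the thermogenic markers in the difference in Gmpr was not tested. Endothelial markers (Cdh5 and Pecam1 the most abundant of 6) summed to 131.7 FPKM in control 3 and to 68.5 to 91.5 FPKM in the other libraries. Fibroblast markers (Dpt and Dcn the most abundant of 5) summed to 573 to 838 FPKM in controls and 473 to 542 FPKM in knockouts, highest in control 3. Lower values at an unadjusted p under 0.05 were found for 4 of the 5, against 17.1% of all genes tested, and none passed after adjustment. Of the enzymes, Impdh1, Impdh2, Ampd2 and Ampd3 were also highest of all 6 libraries in control 3. So were Prps1, Entpd1, Samhd1 and Slc43a3 among the genes named from the wider list. A part of endothelial cells and fibroblasts in the values of these genes was not tested. Among the controls alone, control 3 was highest for 48.4% of all genes tested. B and T cell markers, led by Cd79a and Cd79b, summed to at most 3.62 FPKM. Epithelial markers, led by Krt18 and Epcam, summed to at most 1.25 FPKM, with Krt14, Csn2 and Wap listed at 0 throughout.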

How the data were processed

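Polyadenylated RNA libraries (stranded mRNA kit, Illumina HiSeq) came from 3 control and 3 knockout samples, grouped by title. The submitters' processing notes name cutadapt, HISAT2, HTSeq and build mm10. Versions, annotation and strand setting: not given in the sources used here. The authors deposited FPKM per gene, 1 column per sample. Of 21936 rows, 36 that repeat a symbol were left out. FPKM times exon length (GENCODE M21) and 1 factor per library came out whole in 97.9 to 98.1% of values at or under 50 reads (tolerance 0.05), which gave read numbers; 1 read per kilobase is 0.062 to 0.075 FPKM. Genes averaging 1 FPKM or more in one of the groups (10787) were tested with limma 3.58.1 (R 4.3.3, mean-variance trend) on log2(FPKM + 1), with Benjamini-Hochberg adjustment over all of them, after a check on simulated data.

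The members and lists were chosen with earlier results of these data known. Named genes are the members, Ampd1, Foxp4, Ucp1, wider purine genes at an unadjusted p under 0.05 or most abundant in their role, the 5 genes most like Gmpr and the 2 most abundant markers per list; Atxn1, Tinf2, Uox and Tnnc2 were added after values were seen. One gene that this rule would name is not reported here. Protein sequences were not used here. Alternatives were a pseudocount of 0.1, no filter, median-of-ratios scaling, no trend, the replicate number as a block and leaving out each library.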

Additional observations from a re-analysis of the deposited data

How the results depend on the processing

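Over all genes, 1 passed an adjusted p of 0.05 in limma (2601 at an unadjusted p under 0.05). Dropping the filter made this 0, a replicate block also 0, and leaving out 1 library 0 to 5. Of the 9 enzymes other than Gmpr, and of the wider list, 0 passed under every alternative. At an unadjusted p of 0.05 the 9 enzymes gave 2, but 1 without a filter, 1 without the trend and 1 under the replicate block, and 1 to 3 without 1 library. The wider list gave 12, 9 with the block, and 7 to 11 without 1 library. The cause was not tested. The replicate numbers share no stated source, and deviations of same-numbered libraries correlated at 0.065, 0.027 and -0.25. Leaving out 1 library turned the sign of the log2 difference of Impdh1 (range -0.22 to 0.015, positive without control 3), Ampd3 (-0.036 to 0.14; -0.0014 without control 1, -0.035 without control 2, -0.036 without knockout 1), Hprt (-0.16 to 0.013, positive without control 1) and Entpd5 (-0.050 to 0.12; -0.050 without control 1, -0.027 without knockout 2), and scaling that of Hprt (0.0071). The differences in share kept their sign without any 1 library: 6.65 to 10.2 percentage points for Gmpr, 1.58 to 4.75 for Impdh1, 0.67 to 8.90 for Ampd1, -11.9 to -6.20 for Ampd2 and 1.82 to 5.53 for Ampd3. For Gmpr and Ampd2 the sign could not turn, because the groups did not overlap in these shares. The Gmpr share also contains the gene that was chosen for its difference. Depth limits genes with few reads, such as Gmpr2 (49 to 89 per library).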
